A study of Mus musculus with 30 samples.

Results

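The late cornified envelope (Lce) genes and a set of named barrier genes were followed in mouse back skin through the inflammation raised by the phorbol ester TPA, in wild type (WT) mice and in mice deficient in D6, an atypical chemokine receptor that takes up and degrades inflammatory CC chemokines. The members were every gene on the array whose symbol starts with Lce, together with a list of genes of the cornified envelope, its cross-linking enzymes, corneodesmosomes, epidermal proteases, barrier lipids, tight junctions and their transcription factors. They came to 46 of the 22121 genes named on the array, namely 11 Lce1 genes, 4 Lce3 genes and 31 genes outside the Lce family. The 46 genes had 59 probe sets, of which 54 were bright enough to be tested. The other 5, which are further probe sets of Rptn, Scel and Cldn1, lay among the dimmest 20% of the array and are not counted below.

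As keratinocytes leave the basal layer they replace their plasma membrane with the cornified envelope, a shell of proteins such as loricrin and involucrin that transglutaminases cross-link and to which ceramides are attached. The late cornified envelope proteins join this shell late, and in human skin the LCE1 genes belong to undisturbed epidermis whereas the LCE3 genes are induced after injury of the barrier and in psoriasis. Filaggrin aggregates keratin filaments and is later broken down, with caspase-14 among the enzymes involved, and kallikreins cut the corneodesmosomes so that the outermost cells are shed.

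Female mice of 8 to 12 weeks and of the mixed 129–C57BL/6 strain received 3 applications of 50 μM TPA in acetone, 24 hours apart, on shaved back skin, and whole back skin was taken 1, 2, 4 or 6 days later. Control mice of each genotype, called day 0, received acetone alone although untreated is the word in the sample titles. With 3 mice in each of the 10 combinations of genotype and day, and 1 Affymetrix array a mouse, there were 30 arrays. In both genotypes the samples held epidermis together with hair follicles, dermis, fat and muscle, and in such samples fewer cells of a type and less RNA per cell cannot be told apart.

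Levels are given as log2 of the normalized intensity, for the brightest probe set of a gene unless another is named, and a difference of 1 is a doubling on this scale. The level of one gene is not set against that of another, since probe sets differ in brightness. The arrays had medians between 5.64 and 5.80 and no value above 14.98, and the median standard deviation between the mice of a group was 0.15. On 1 of the 3 probe sets of the D6 gene, listed as Ccbp2, the D6-deficient arrays (3.30 to 3.86) lay below all WT arrays (4.15 to 5.76), whereas on the other 2 the genotypes overlapped. One D6-deficient array of day 4, replicate 1, held the lowest level of its group for 52 of the 54 members. A gene is said to rise or fall when its adjusted p was under 0.05 in limma, with Benjamini-Hochberg adjustment over all 36029 probe sets tested, and all adjusted p values come from that fit.

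The Lce genes lie in one stretch of chromosome 3, and the proximal promoters of those on which the results turn are shown because most Lce1 genes share much of their sequence there while Lce1l, Lce1m and the Lce3 genes share less. RefSeq (GRCm38.p6) lists 21 Lce genes in that stretch, of which 15 have a probe set, and promoters were found for 10 of 11 Lce1 and 4 of 4 Lce3 genes. The order of those with a probe set runs from Lce1a1 through the other Lce1 genes to Lce1l, then from Lce3a to Lce3f, and ends with Lce1m. Each sequence is the 120 bases before the RefSeq start site, 5′ to 3′ on the strand of the gene, and capitals mark ATAAAA, a variant of the box that places the start of transcription.
Lce1c (chr3:92679127-92679246, plus strand): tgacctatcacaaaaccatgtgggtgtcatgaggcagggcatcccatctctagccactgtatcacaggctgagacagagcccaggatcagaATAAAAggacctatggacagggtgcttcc
Lce1g (chr3:92752339-92752458, minus strand): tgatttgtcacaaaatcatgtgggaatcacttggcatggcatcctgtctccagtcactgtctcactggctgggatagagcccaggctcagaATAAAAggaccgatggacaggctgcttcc
Lce1h (chr3:92765066-92765185, minus strand): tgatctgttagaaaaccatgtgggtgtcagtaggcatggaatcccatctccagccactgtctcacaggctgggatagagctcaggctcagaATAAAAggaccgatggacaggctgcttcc
Lce1l (chr3:92851287-92851406, minus strand): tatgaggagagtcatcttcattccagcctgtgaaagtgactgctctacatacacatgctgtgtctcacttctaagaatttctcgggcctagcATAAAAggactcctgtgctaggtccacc
Lce1m (chr3:93019062-93019181, minus strand): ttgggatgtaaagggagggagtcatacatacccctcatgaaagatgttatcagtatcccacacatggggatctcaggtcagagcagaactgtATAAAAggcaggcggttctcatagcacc
Lce3a (chr3:92926231-92926350, minus strand): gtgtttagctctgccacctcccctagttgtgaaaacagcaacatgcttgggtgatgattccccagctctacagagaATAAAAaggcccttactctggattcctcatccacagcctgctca
Lce3f (chr3:92992097-92992216, plus strand): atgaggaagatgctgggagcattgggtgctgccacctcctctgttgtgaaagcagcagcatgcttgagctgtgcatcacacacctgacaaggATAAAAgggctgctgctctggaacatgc
ATAAAA, searched on both strands of this window, was in 13 of the 14 Lce promoters (not in that of Lce1a1), against 8.3% of all 32851 promoters and 3 of 27 member promoters outside the family. The string was picked as a stretch that the Lce promoters share, so its share there was not a test. Other forms of the box were not searched. Over the whole RefSeq promoter window, the 8 Lce1 promoters other than those of Lce1l and Lce1m were 69.3% to 86.3% identical to each other in 28 pairs, and Lce1g with Lce1h was the closest pair. Lce1l shared 60.7% to 62% of its bases with them and Lce1m 61.3% to 63.7% with the other Lce1 promoters, within the 58.3% to 65% found between Lce1 and Lce3 promoters. Pairs within Lce3 were 64.7% to 73.7% identical. The alignments allowed gaps and no unrelated promoters were aligned, so the identity that unrelated sequences reach is not known. These identities are of promoters, and the sequences of transcripts and array probes were not compared. Several Lce probe sets carry the array's mark for probes that match more than one transcript, and 1 is assigned to Lce1c, Lce1f and Lce1g together. The single Lce1 values are therefore uncertain and not independent of each other.

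TPA raised most of the barrier genes in WT skin and fewer in D6-deficient skin, where a large group was below its day 0 level at day 4. Against day 0 in WT mice, 42 of the 54 members rose at day 1, where 11.4% of all probe sets tested did, 43 at day 2 (background 11%), 27 at day 4 (background 17.3%) and 32 at day 6 (background 10.2%). In WT skin 1 member fell at day 2, where 15% of all probe sets tested did, 6 fell at day 4 (background 21.8%), and none passed in that direction at days 1 (background 12.7%) and 6 (background 11.9%) in limma. In D6-deficient mice 29 members rose at day 1 (background 18.2%), 19 at day 2 (background 17.5%), 13 at day 4 (background 18.8%) and 16 at day 6 (background 16%). Those that fell in D6-deficient skin numbered 3 at day 1 (background 18.1%), 10 at day 2 (background 20.6%), 22 at day 4 (background 22.4%) and 4 at day 6 (background 15.7%). In both genotypes the share of members that rose stood above the background at every day, though by little at day 4 in D6-deficient skin. The share that fell stood above it in D6-deficient skin at day 4 alone, and in WT skin at no day. The median change over the members in WT skin was 1.28, 1.77, 0.75 and 0.86 at days 1, 2, 4 and 6, and in D6-deficient skin it was 0.74, 0.23, -0.23 and 0.20. Members past the test and over 3-fold higher numbered 21, 29, 13 and 11 in WT skin (backgrounds 0.93%, 1.2%, 1.76% and 0.799%) and 12, 10, 6 and 8 in D6-deficient skin (backgrounds 1.06%, 1.7%, 1.97% and 0.888%), and 8 were over 3-fold lower at day 4 in D6-deficient skin (background 2.04%). All days of a genotype share its day 0 arrays, and 52 of the 54 members had a higher day 0 mean in D6-deficient skin. These counts do not test the genotypes against each other. In the test of the difference in change, given below, members passed at days 2 and 4 and none did at days 1 and 6. The counts of day 6 rested on single arrays, as those past the test went from 32 to 21 without WT replicate 2, and from 20 to 11 without D6-deficient replicate 2.

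Markers of several cell types also changed after TPA, some in the direction of most members and some against it. Of the 6 keratinocyte markers tested (Krt5, Krt14, Krt1, Krt10, Cdh1 and Perp), 3, 5, 1 and 3 rose in WT skin at days 1, 2, 4 and 6 and 0, 0, 2 and 0 fell, while 0, 2, 0 and 0 rose in D6-deficient skin and 0, 0, 5 and 0 fell. Their summed log2 level in WT skin was 15.11 to 15.18 at day 0, 15.68 to 15.89 at day 1, 15.91 to 16.05 at day 2 and 15.45 to 15.76 at day 6. In D6-deficient skin the sum was 15.57 to 15.66 at day 0, 15.72 to 15.91 at day 1, 15.90 to 15.95 at day 2 and 15.60 to 15.69 at day 6. The arrays of WT skin at these days thus lay above its day 0, and in D6-deficient skin those of day 6 overlapped it. Of the 5 markers of proliferating cells 5, 5, 4 and 5 rose in WT skin and 5, 4, 0 and 5 in D6-deficient skin. All 5 skeletal muscle markers fell at every day in both genotypes, from a sum of 16.23 to 16.39 at day 0 to 15.05 to 15.63 after TPA in WT skin and from 16.07 to 16.21 to 14.25 to 15.61 in D6-deficient skin. Of the 4 sebaceous gland markers 2, 2, 3 and 2 fell in WT skin and 3, 3, 3 and 1 in D6-deficient skin. Neutrophil markers rose in WT skin for 2, 4, 4 and 2 of 4 and in D6-deficient skin for 3, 4, 4 and 0. Macrophage markers went both ways, as 0, 1, 2 and 0 of 5 rose in WT skin and 2, 0, 3 and 2 fell. In D6-deficient skin 1, 4, 2 and 1 of the macrophage markers rose and 1, 0, 3 and 0 fell. The part of these markers in the members' changes was not tested.

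**Figure D1:**
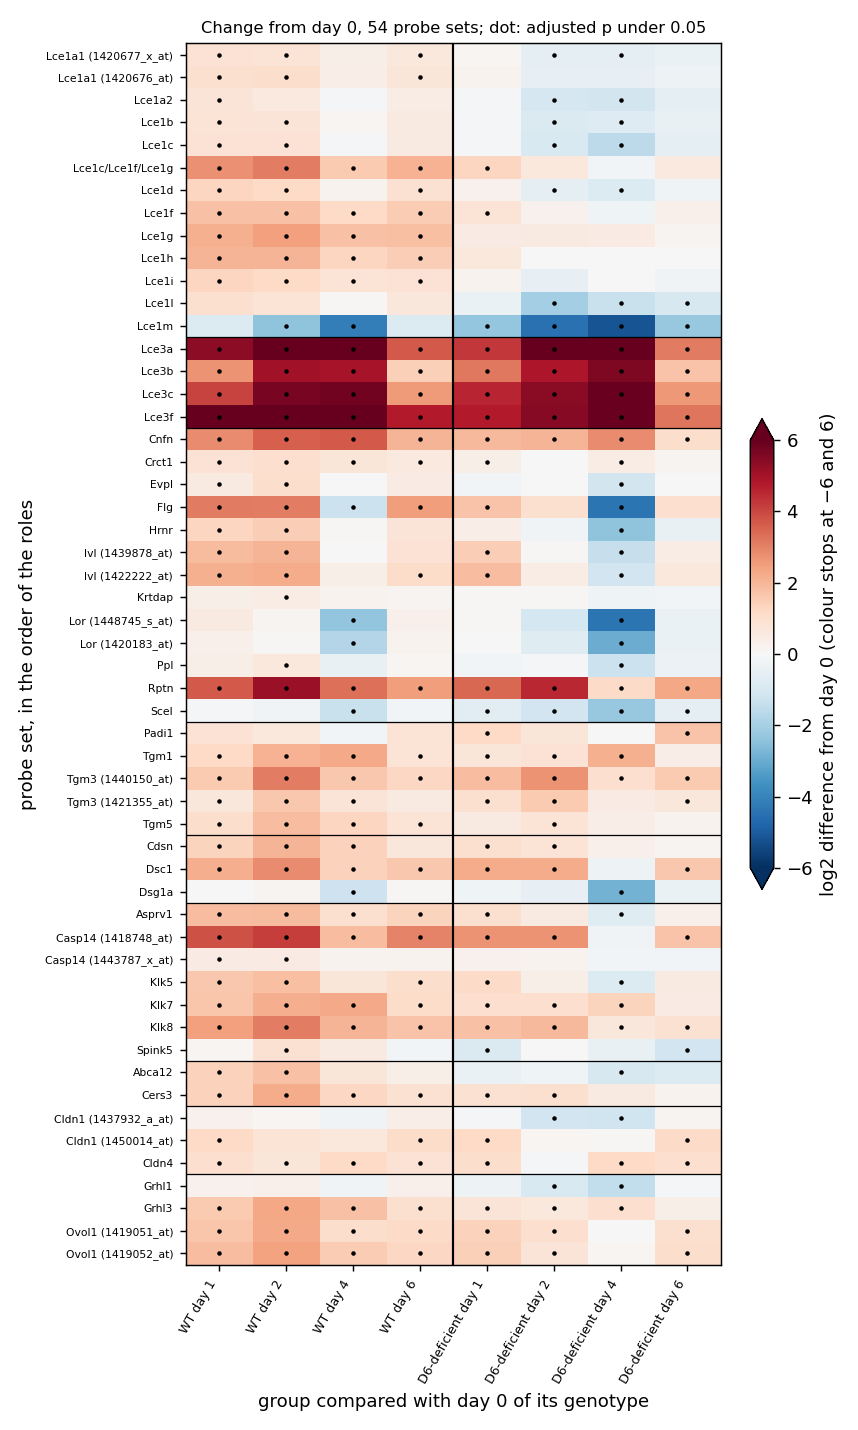
Change from day 0 of the same genotype (colour, log2 difference, stopping at -6 and 6) for the 54 member probe sets in rows, ordered by role, and the 4 days of each genotype in columns, with a dot where the adjusted p was under 0.05. The 4 Lce3 rows are red with a dot in all 8 columns, while 7 of the 13 Lce1 rows are blue with a dot at days 2 and 4 in D6-deficient skin.

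The map of changes from day 0 separates the Lce1 from the Lce3 genes. All 4 Lce3 probe sets rose at every day in both genotypes. Of the 13 Lce1 probe sets, 11 rose in WT skin at day 1, 10 at day 2, 5 at day 4 and 8 at day 6, whereas in D6-deficient skin 2 rose at day 1 and none at days 2, 4 and 6. Those that fell in D6-deficient skin numbered 1, 7, 7 and 2 at days 1, 2, 4 and 6, against 0, 1, 1 and 0 in WT skin. The median Lce3 change was 4.71, 6.67, 6.75 and 3.12 in WT and 4.41, 5.43, 5.91 and 2.86 in D6-deficient skin. The median Lce1 change was 0.98, 1.03, 0.33 and 0.74 in WT and 0.20, -0.56, -0.56 and -0.33 in D6-deficient skin. Against the shares of all probe sets given above, the 2 of 13 that rose at day 1 in D6-deficient skin (18.2% of all) and the 2 of 13 that fell there at day 6 (15.7% of all) were near the background. The families were not compared by a test.

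Lce3a changed most of all members. In WT skin Lce3a was at 5.19, 4.09 and 4.36 on day 0, at 10.38, 9.36 and 10.05 on day 1, at 12.92, 13.32 and 12.32 on day 2, at 13.04, 12.30 and 13.48 on day 4, and at 7.04, 8.95 and 8.64 on day 6. In D6-deficient skin the levels of Lce3a were 5.77, 5.14 and 6.86 on day 0, 10.83, 10.14 and 9.56 on day 1, 13.02, 12.47 and 12.82 on day 2, 13.33, 13.52 and 13.68 on day 4, and 8.81, 10.41 and 7.85 on day 6. The arrays of every day after TPA lay above those of day 0 in both genotypes, and day 6 had the lowest mean of the 4 days after TPA. The rise at day 4 was 8.39 in WT skin, or 336-fold (SE 0.54, adjusted p = 5.16e-11), and 7.59 in D6-deficient skin, or 192-fold (SE 0.54, adjusted p = 1.33e-10).

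Lce3f followed a like course from a day 0 level that differed between the genotypes. Its WT levels were 7.06, 5.03 and 5.83 on day 0, 12.77, 11.84 and 12.28 on day 1, 13.63, 13.78 and 13.41 on day 2, 13.79, 13.20 and 14.07 on day 4, and 9.40, 11.50 and 11.31 on day 6. The D6-deficient levels of Lce3f were 8.59, 6.997 and 8.98 on day 0, 13.26, 12.94 and 12.71 on day 1, 13.68, 13.59 and 13.71 on day 2, 14.17, 14.05 and 14.07 on day 4, and 11.41, 12.33 and 10.43 on day 6. At days 2 and 4 all arrays of both genotypes lay near the top of the scale, where the range left for a further rise is small. The rise of Lce3f at day 4 was 210-fold in WT skin (log2 7.72, adjusted p = 1.13e-10) and 60-fold in D6-deficient skin (log2 5.91, adjusted p = 4.03e-09). Lce3b and Lce3c rose by 4.93 and 5.79 at day 4 in WT skin and by 5.61 and 5.92 in D6-deficient skin, so the genotypes did not stand in the same order for the 4 genes. At day 6 Lce3b had risen by 1.41 in WT skin and by 1.72 without D6, with adjusted p = 0.176 and 0.0637 without replicate 2 of day 6 of the genotype.

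**Figure D2:**
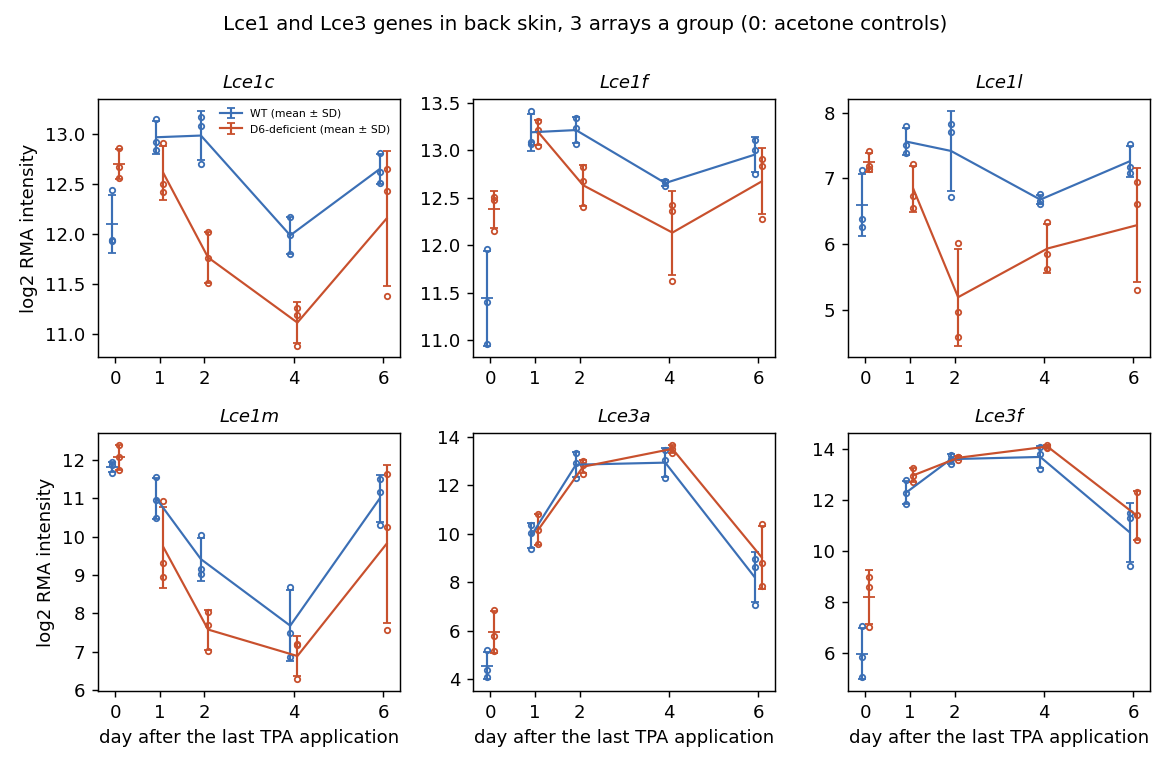
Log2 RMA intensity (y axis) of 4 Lce1 and 2 Lce3 genes against the day after the last TPA application (x axis, with the acetone controls at 0), with an open circle for each of 3 arrays a group and lines and bars for the mean and SD. Lce3a and Lce3f climbed by over 5 units by day 2, Lce1m had its lowest mean at day 4, and Lce1c and Lce1l of the D6-deficient mice lay below all WT arrays at day 2.

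The plot of Lce levels by day shows the Lce1 genes other than Lce1m on a smaller range. Lce1c stood in WT skin at 12.44, 11.93 and 11.94 on day 0, at 13.15, 12.92 and 12.83 on day 1, at 13.08, 12.70 and 13.17 on day 2, at 11.99, 12.17 and 11.80 on day 4, and at 12.51, 12.62 and 12.81 on day 6. In D6-deficient skin Lce1c stood at 12.86, 12.67 and 12.56 on day 0, at 12.50, 12.41 and 12.91 on day 1, at 12.02, 11.51 and 11.76 on day 2, at 10.88, 11.19 and 11.26 on day 4, and at 12.43, 11.38 and 12.65 on day 6. The WT arrays of days 1 and 2 all lay above those of day 0, and the D6-deficient arrays of days 2 and 4 all lay below those of day 0. Lce1c rose in WT skin at days 1 and 2, by 0.87 (adjusted p = 0.00738) and 0.88 (adjusted p = 0.00574), and fell in D6-deficient skin by 0.93 at day 2 (adjusted p = 0.00225) and by 1.59 at day 4 (SE 0.23, adjusted p = 5.57e-06).

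Lce1f rose more in WT skin and did not pass in the lower direction in D6-deficient skin. Its WT levels were 11.96, 10.96 and 11.40 on day 0, 13.41, 13.08 and 13.07 on day 1, 13.24, 13.06 and 13.33 on day 2, 12.66, 12.68 and 12.62 on day 4, and 12.75, 13.00 and 13.11 on day 6. Its D6-deficient levels were 12.51, 12.15 and 12.47 on day 0, 13.22, 13.04 and 13.30 on day 1, 12.82, 12.40 and 12.67 on day 2, 11.62, 12.35 and 12.42 on day 4, and 12.91, 12.27 and 12.83 on day 6. The WT arrays of every day after TPA lay above all those of day 0, and so did the D6-deficient arrays of day 1. The rises in WT skin were 1.75, 1.77, 1.21 and 1.51, with the highest adjusted p at day 4 (7.84e-05). In D6-deficient skin Lce1f rose by 0.81 at day 1 (adjusted p = 0.0044), and at days 2, 4 and 6 the changes of 0.26, -0.24 and 0.30 did not pass.

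The probe set shared by Lce1c, Lce1f and Lce1g had the widest rise among the Lce1 probe sets. Its WT levels were 7.89, 6.86 and 7.64 on day 0, 10.70, 9.90 and 10.01 on day 1 and 10.60, 10.16 and 10.91 on day 2, and its D6-deficient levels were 8.81, 8.04 and 8.74, 9.62, 9.56 and 10.24 and 9.24, 9.01 and 9.28. The arrays of days 1 and 2 lay above day 0 in both genotypes, and the rises were 2.74 and 3.09 in WT skin, and in D6-deficient skin it was 1.28 on day 1, where 0.65 at day 2 did not pass. Lce1g rose in WT skin by 2.16 and 2.47 at days 1 and 2 and Lce1h by 2.02 and 2.03, and neither passed at any day in D6-deficient skin. The Lce1 probe sets that fell at days 2 and 4 in D6-deficient skin were those of Lce1a2, Lce1b, Lce1c, Lce1d, Lce1l, Lce1m and the brighter one of Lce1a1. Lce1l fell furthest of those other than Lce1m at day 2, from 7.41, 7.19 and 7.14 on day 0 to 6.01, 4.97 and 4.59, by 2.06 (adjusted p = 7.7e-05), and its WT changes of 0.09 to 0.97 did not pass. At day 6 in D6-deficient skin all 13 Lce1 probe sets were lowest on replicate 2, and without it none of the 54 members passed in the lower direction. That array also had the highest summed log2 level of its group for 5 hair follicle keratins (15.55 against 14.36 and 13.17), and the part of this in the Lce1 levels was not tested.

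Lce1m took a course of its own, as it was below day 0 in both genotypes. In WT skin Lce1m was at 11.93, 11.86 and 11.67 on day 0, at 10.95, 11.54 and 10.49 on day 1, at 9.16, 9.02 and 10.05 on day 2, at 7.47, 8.70 and 6.86 on day 4, and at 11.16, 10.31 and 11.49 on day 6. In D6-deficient skin Lce1m was at 12.39, 12.09 and 11.72 on day 0, at 9.31, 8.94 and 10.92 on day 1, at 8.03, 7.01 and 7.69 on day 2, at 6.27, 7.21 and 7.18 on day 4, and at 10.25, 7.57 and 11.63 on day 6. All arrays of days 1 to 6 lay below all arrays of day 0 in both genotypes. At day 4 Lce1m had fallen by 4.14 in WT skin, a 17.7-fold decrease (adjusted p = 2.56e-05), and by 5.18 in D6-deficient skin, a 36.3-fold decrease (adjusted p = 1.05e-06). In D6-deficient skin Lce1m also fell by 2.34 at day 1, by 4.49 at day 2 and by 2.25 at day 6, while in WT skin it fell by 2.41 at day 2 (adjusted p = 0.00871) and did not pass at days 1 and 6. Lce1m is the Lce1 gene that lies beyond the Lce3 genes, and RefSeq gives Lce5a as an older symbol for it.

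Among the envelope proteins outside the Lce family, the proximal promoters of 4 with large changes are shown because they share a string. Capitals mark TGANTCA, where N is any base, searched on both strands of the whole window. It is a loose form of TGACTCA or TGAGTCA, the usual core bound by AP-1 factors. These are the family of Fos and Jun that TPA is known to induce. Of the promoters shown, those of Lor and Ivl hold the usual core, while those of Flg and Rptn hold TGAATCA and TGATTCA.
Flg (chr3:93273426-93273545, plus strand): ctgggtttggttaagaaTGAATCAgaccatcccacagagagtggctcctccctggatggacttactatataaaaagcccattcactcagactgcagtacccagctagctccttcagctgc
Lor (chr3:92083143-92083262, minus strand): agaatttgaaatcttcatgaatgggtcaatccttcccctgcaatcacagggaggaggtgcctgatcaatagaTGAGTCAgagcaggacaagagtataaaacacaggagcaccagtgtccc
Ivl (chr3:92573736-92573855, minus strand): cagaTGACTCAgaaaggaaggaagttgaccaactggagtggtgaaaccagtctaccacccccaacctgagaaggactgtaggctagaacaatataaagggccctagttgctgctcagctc
Rptn (chr3:93393579-93393698, plus strand): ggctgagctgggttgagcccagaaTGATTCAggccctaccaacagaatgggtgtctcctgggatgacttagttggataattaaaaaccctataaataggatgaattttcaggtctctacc
TGANTCA was in 6 of the 8 envelope promoters found outside the Lce family, those of Flg, Ivl, Krtdap, Lor, Rptn and Scel, where it lay 103, 116, 81, 48, 96 and 36 bases before the start. Among all promoters 7.81% held it, and Cldn4 was the only other member with a match. Of the 14 Lce promoters 0 held it, which is near the share of all promoters. Most Lce1 promoters are also alike, so this lack does not set the Lce genes apart. AACCGGTT, a string bound by grainyhead-like factors, was in 0 member promoters and in 0.146% of all promoters. The genes with TGANTCA did not move alike, as Rptn was above its day 0 level at day 4 while Flg, Lor and Scel were below theirs in both genotypes.

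Filaggrin (Flg) was high at days 1 and 2 and lowest at day 4. Flg stood in WT skin at 9.69, 8.03 and 8.79 on day 0, at 12.46, 11.61 and 11.74 on day 1, at 11.98, 11.45 and 12.28 on day 2, at 7.53, 9.02 and 6.04 on day 4, and at 11.01, 11.49 and 11.51 on day 6. In D6-deficient skin Flg stood at 10.28, 9.50 and 10.16 on day 0, at 11.71, 11.74 and 11.68 on day 1, at 11.22, 10.75 and 10.81 on day 2, at 4.62, 6.01 and 6.13 on day 4, and at 11.50, 10.53 and 10.86 on day 6. All D6-deficient arrays of day 4 lay below those of day 0, whereas the WT arrays of day 4 overlapped those of day 0. In WT skin the changes were 3.10 and 3.07 at days 1 and 2 (adjusted p = 9.22e-05 and 8.34e-05), -1.30 at day 4 (adjusted p = 0.0435) and 2.50 at day 6 (adjusted p = 0.00105). The fall in WT skin was lost without any of 4 of the 6 arrays compared, with -0.56 and adjusted p = 0.395 without WT day 4 replicate 3. In D6-deficient skin Flg rose by 1.73 at day 1 (adjusted p = 0.00934), fell by 4.39 at day 4, a 21-fold decrease (SE 0.51, adjusted p = 2.29e-07), and did not pass at days 2 and 6.

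Loricrin (Lor), the main protein of the envelope, was near the top of the scale except at day 4. In WT skin Lor was at 13.52, 13.48 and 13.43 on day 0, at 14.03, 14.03 and 13.95 on day 1, at 13.88, 13.29 and 13.77 on day 2, at 11.06, 12.27 and 10.02 on day 4, and at 13.81, 13.69 and 13.89 on day 6. In D6-deficient skin Lor was at 13.89, 13.97 and 13.82 on day 0, at 13.95, 13.87 and 14.07 on day 1, at 12.88, 12.80 and 12.91 on day 2, at 7.76, 10.60 and 10.17 on day 4, and at 13.65, 12.93 and 13.90 on day 6. The arrays of day 4 lay below all arrays of day 0 in both genotypes, and no other day passed the test. Lor fell at day 4 by 2.36 in WT skin, or 5.13-fold (adjusted p = 0.000324), and by 4.38 in D6-deficient skin, or 20.9-fold (adjusted p = 8.58e-08). On the second Lor probe set it fell by 1.77 and 2.97.

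Involucrin (Ivl), an early scaffold of the envelope, rose in WT skin at days 1 and 2. Its WT levels were 9.98, 10.10 and 9.79 on day 0, 12.39, 11.58 and 11.56 on day 1, 12.17, 11.68 and 12.16 on day 2, 9.68, 10.31 and 9.99 on day 4, and 10.54, 10.73 and 11.23 on day 6. Its D6-deficient levels were 10.38, 9.86 and 9.75 on day 0, 11.52, 10.81 and 12.05 on day 1, 10.43, 9.88 and 9.94 on day 2, 7.95, 8.50 and 9.35 on day 4, and 10.98, 9.69 and 10.70 on day 6. By day 2 the D6-deficient arrays overlapped those of day 0, and at day 4 all 3 lay below them. Ivl rose by 1.89 and 2.05 at days 1 and 2 in WT skin (adjusted p = 0.000327 and 0.000112) and by 1.46 at day 1 in D6-deficient skin (adjusted p = 0.00189), and fell by 1.40 at day 4 in D6-deficient skin (adjusted p = 0.00216). The second Ivl probe set gave the same calls and passed at day 6 in WT skin as well, with 1.09 (adjusted p = 0.0327).

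Repetin (Rptn), of the same protein family as filaggrin, rose at every day in both genotypes and had the widest rise among the envelope proteins outside the Lce family. In WT skin Rptn went from 6.98, 7.74 and 7.62 on day 0 to 12.65, 12.77 and 12.47 on day 2, a 36.3-fold rise (log2 5.18, adjusted p = 6.96e-09). In D6-deficient skin it went from 7.71, 8.18 and 8.21 to 12.86, 12.31 and 12.46, a rise of 4.51 (adjusted p = 2.64e-08). At day 2 no array of either genotype overlapped day 0, and at day 4 Rptn was still 3.29 higher in WT skin and 1.15 higher without D6. Cornifelin (Cnfn), a minor envelope component, rose at all 4 days in both genotypes, at day 4 by 3.66 and 2.85. Hornerin (Hrnr), another relative of filaggrin, rose in WT skin at days 1 and 2 by 1.30 and 1.48, and fell in D6-deficient skin by 2.42 at day 4 (adjusted p = 9.4e-06). Sciellin (Scel) fell at day 4 by 1.33 with D6 and by 2.28 without it, and in D6-deficient skin fell also at days 1, 2 and 6 by 0.62, 1.14 and 0.57. Envoplakin (Evpl) and periplakin (Ppl), which link keratin filaments to the envelope, fell at day 4 in D6-deficient skin by 1.10 and 1.27, and in WT skin their changes of 0.04 and -0.45 did not pass. Krtdap rose in WT skin at day 2 by 0.46 and passed at no other day, and Crct1 rose at all 4 days in WT skin, by 0.57 to 0.99, and at days 1 and 4 in D6-deficient skin by 0.36 and 0.45.

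**Figure D3:**
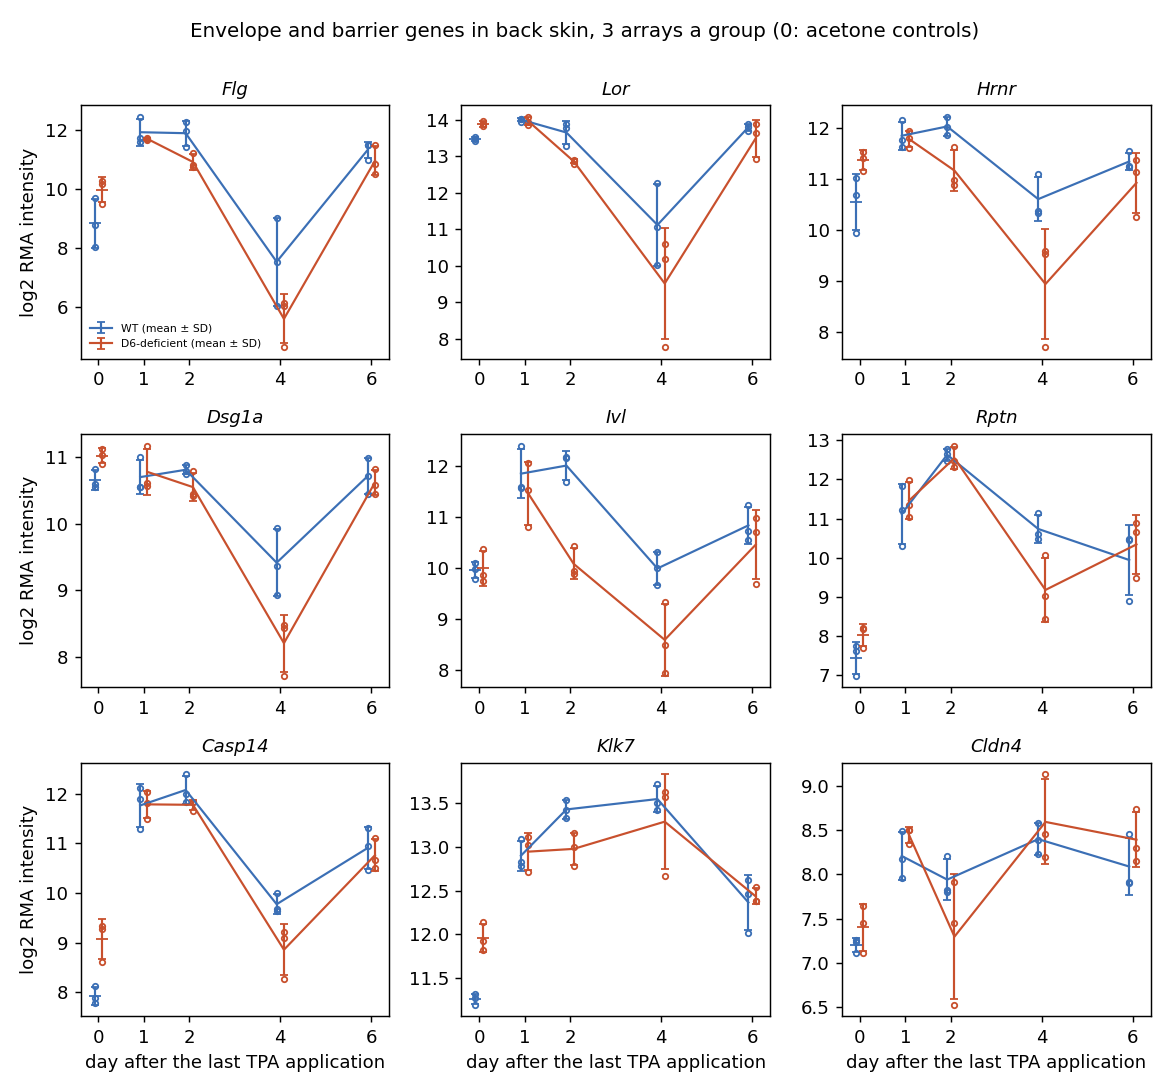
Log2 RMA intensity (y axis) of 9 envelope and barrier genes against the day after the last TPA application (x axis, acetone controls at 0), with an open circle for each of 3 arrays a group and lines and bars for the mean and SD. Among the groups of D6-deficient skin Flg, Lor, Hrnr and Dsg1a had their lowest mean at day 4, while Rptn was highest at day 2 and Klk7 and Cldn4 were highest at day 4.

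The plot of barrier genes by day shows that enzyme and junction genes moved in more than one direction at day 4. Of the cross-linking enzymes, transglutaminase 1 (Tgm1) rose at day 4 by 2.29 in WT and 2.12 in D6-deficient skin (adjusted p = 4.36e-08 and 9.79e-08). Tgm3 made the widest change of this role, from 5.47, 5.17 and 4.97 on day 0 to 8.51, 8.61 and 7.66 on day 2 in WT skin, a rise of 3.06 (adjusted p = 5.75e-07). In D6-deficient skin Tgm3 went from 5.22, 5.11 and 5.46 to 8.42, 7.36 and 8.07, a rise of 2.68 (adjusted p = 1.44e-06). In neither genotype did the day 2 arrays of Tgm3 overlap those of day 0. Tgm5 rose at all 4 days in WT skin, at day 2 by 1.86, and at day 2 in D6-deficient skin by 0.84. Padi1, a peptidylarginine deiminase, which turns arginine into citrulline, rose in D6-deficient skin at days 1 and 6 by 1.18 and 1.72, and passed at no day in WT skin. All 5 hair follicle keratins of the marker list (Krt25, Krt27, Krt71, Krt35 and Krt85) rose at days 1 and 6 in both genotypes, by medians of 5.48 and 6.37 in WT and 6.35 and 7.07 in D6-deficient skin. Their summed log2 level was 11.15 to 15.55 on the arrays of days 1 and 6 and 6.97 to 7.55 on all others, and their part in the members' changes at days 1 and 6 was not tested.

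Among the corneodesmosome genes, desmoglein 1 (Dsg1a) passed at day 4 alone, when it fell by 1.25 in WT and 2.82 in D6-deficient skin (adjusted p = 8.35e-05 and 5.94e-10). Desmocollin 1 (Dsc1) stood in WT skin at 7.58, 7.95 and 7.90 on day 0, 10.77, 10.80 and 10.33 on day 2 and 9.17, 9.47 and 8.96 on day 4, which gave rises of 2.82 (adjusted p = 1.95e-05) and 1.39 (adjusted p = 0.00915). In D6-deficient skin Dsc1 stood at 8.00, 8.06 and 7.94 on day 0, 10.37, 10.16 and 10.19 on day 2 and 5.96, 8.50 and 8.62 on day 4. The day 2 arrays lay above day 0 in both genotypes, while at day 4 one D6-deficient array was far below the others and the change of -0.31 did not pass. Corneodesmosin (Cdsn) rose in WT skin at days 1, 2 and 4 by 1.32, 2.02 and 1.40, and in D6-deficient skin at days 1 and 2 by 0.94 and 0.82.

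Caspase-14 (Casp14) showed the widest change among the proteases. In WT skin Casp14 was at 8.13, 7.88 and 7.78 on day 0, at 12.00, 12.39 and 11.84 on day 2 and at 9.68, 10.005 and 9.65 on day 4. In D6-deficient skin it was at 9.34, 8.62 and 9.27 on day 0, at 11.66, 11.83 and 11.85 on day 2 and at 8.26, 9.22 and 9.10 on day 4. The day 4 arrays lay above day 0 in WT skin and overlapped it in D6-deficient skin, with changes of 1.84 (adjusted p = 4.41e-06) and -0.22 (adjusted p = 0.533), after rises of 4.15 and 2.70 at day 2. The dimmer second probe set of Casp14 rose by 0.48 and 0.50 at days 1 and 2 in WT skin and passed at no day in D6-deficient skin. Klk7, the chymotrypsin-like kallikrein of desquamation, rose at day 4 by 2.29 in WT and 1.33 in D6-deficient skin. Klk8 rose at every day in both genotypes, at day 2 by 3.07 and 1.95. Klk5 rose at day 1 by 1.63 and 1.14, and its fall in D6-deficient skin of 0.83 at day 4 was lost without D6-deficient day 4 replicate 1 (-0.19, adjusted p = 0.506). Asprv1, the retroviral-like protease that cuts profilaggrin, rose in WT skin at all 4 days, at day 2 by 1.90, and in D6-deficient skin rose by 0.98 at day 1 and fell by 0.71 at day 4. Spink5, the gene of the kallikrein inhibitor LEKTI, fell in D6-deficient skin at days 1 and 6 by 0.88 and 1.17 and rose in WT skin at day 2 by 0.91.

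The ceramide synthase gene Cers3, listed on the array under the older symbol Lass3, went from 7.40, 6.56 and 7.51 on day 0 to 9.64, 9.04 and 9.52 on day 2 in WT skin, a rise of 2.24 (adjusted p = 3.27e-07). In D6-deficient skin Cers3 went from 8.00, 7.87 and 7.93 to 9.27, 8.73 and 8.70, a rise of 0.97 (adjusted p = 0.00261). The day 2 arrays lay above day 0 in both genotypes. Abca12, the lipid transporter of lamellar granules, rose by 1.39 and 1.77 at days 1 and 2 in WT skin and fell by 0.98 at day 4 in D6-deficient skin. Of the tight junction genes, Cldn4 rose at day 4 by 1.19 with D6 and by 1.19 without it. The brighter probe set of Cldn1 passed in D6-deficient skin alone, where it went from 10.24, 10.17 and 10.27 on day 0 to 9.48, 8.85 and 8.95 on day 2 and 8.45, 9.33 and 9.38 on day 4, and fell by 1.14 and 1.17 (adjusted p = 0.000125 and 6.8e-05). The second Cldn1 probe set rose at days 1 and 6 in both genotypes, by 1.08 to 1.22, and passed at no other day, so the direction for Cldn1 is uncertain.

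Of the transcription factors of barrier formation, Ovol1 went from 6.89, 6.82 and 7.10 on day 0 to 9.29, 9.40 and 8.93 on day 2 in WT skin, a rise of 2.27 (adjusted p = 3.42e-06). In D6-deficient skin Ovol1 went from 7.70, 7.54 and 7.67 to 8.51, 8.65 and 8.73, a rise of 0.99 (adjusted p = 0.00812), and in both genotypes the day 2 arrays lay above those of day 0. The grainyhead-like factor Grhl3 rose at all 4 days in WT skin, at day 2 by 2.33, and at days 1, 2 and 4 in D6-deficient skin by 0.77, 0.66 and 0.99. Its relative Grhl1 passed at no day in WT skin and fell in D6-deficient skin at days 2 and 4 by 0.90 and 1.48.

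Some of these changes no longer passed when 1 array was left out, and those on the brightest probe sets are named here. In WT skin this ended the calls of Lce1a2, Lce1b, Evpl and Hrnr at day 1, of Lce1b, Krtdap, Spink5 and Cldn4 at day 2 and of Flg at day 4. In D6-deficient skin it ended those of Crct1, Scel, Tgm1 and Spink5 at day 1, of Lce1a1, Lce1d, Cdsn and Grhl3 at day 2, and of Lce1a1, Rptn, Tgm3, Asprv1, Klk5, Klk8 and Abca12 at day 4. The rise of Rptn at day 4 there was 0.71 (adjusted p = 0.236) without D6-deficient day 4 replicate 3, and the fall of Lce1m at day 6 was -1.13 (adjusted p = 0.141) without D6-deficient day 6 replicate 2. On day 6 the calls of Lce1a1, Lce1i, Lce3b, Tgm1, Tgm3, Tgm5, Klk5, Cers3, Cldn4 and Ovol1 in WT skin and of Lce1l, Lce1m, Lce3b, Scel, Klk8, Spink5 and Ovol1 in D6-deficient skin ended likewise.

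**Figure D4:**
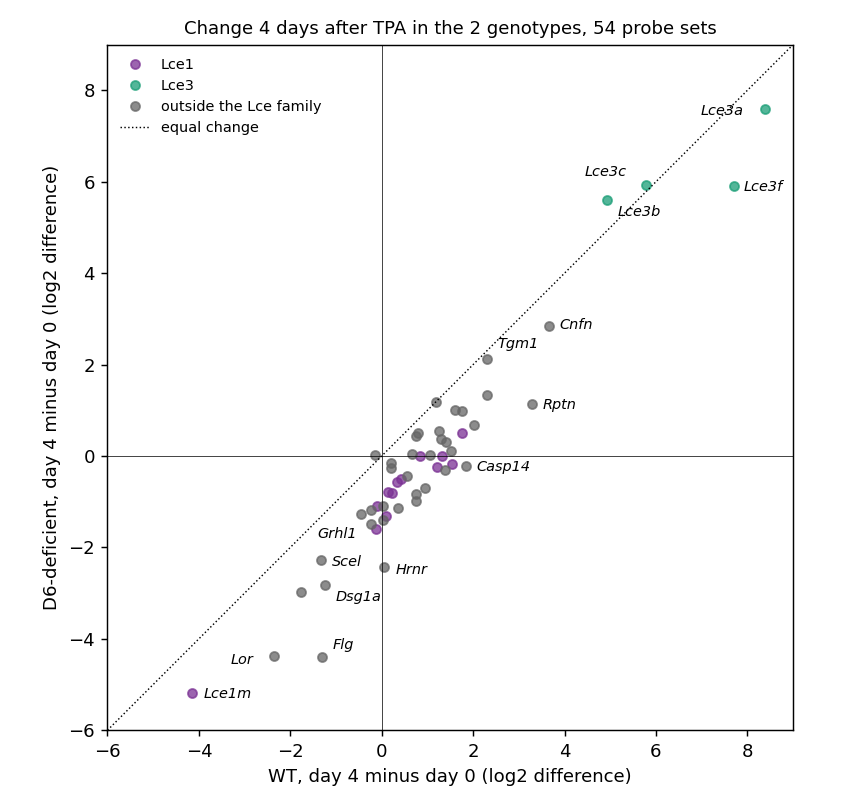
Change from day 0 to day 4 (log2 difference) in WT skin (x axis) and in D6-deficient skin (y axis) for the 54 member probe sets, a point each, with a dotted line where both changes are equal. The Lce3 genes lie at the upper right, at 4.93 or more in WT skin, Lce1m, Lor, Flg, Dsg1a and Scel at the lower left, and most other points below the line.

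The plot of day 4 changes shows that day 4 split the members most widely, from -4.14 for Lce1m to 8.39 for Lce3a in WT skin and from -5.18 to 7.59 in D6-deficient skin. In WT skin the members that fell were Lce1m, Flg, both probe sets of Lor, Scel and Dsg1a. In D6-deficient skin 9 of the 13 probe sets of envelope proteins outside the Lce family, 7 of 13 of Lce1, and those of Dsg1a, Asprv1, Klk5, Abca12, Cldn1 and Grhl1 fell. Without replicate 1 of day 4, which was the lowest for most members, 17 fell and 15 rose there, against 22 and 13 with it. Keratinocyte markers fell beside many members in D6-deficient skin at this day. In WT skin their summed level was lower too, although more members rose than fell. Of 6 such markers, in WT skin Krt1 fell by 2.52 and Krt10 by 4.27, Krt14 rose by 1.10 and the others did not pass, while in D6-deficient skin 5 of 6 fell, with changes of -4.46 for Krt1, -5.52 for Krt10, -1.15 for Krt5, -0.96 for Perp and -0.66 for Cdh1. The summed log2 level of the 6 markers was 15.11 to 15.18 at day 0 and 14.73 to 14.99 at day 4 in WT skin, and 15.57 to 15.66 and 14.03 to 14.54 in D6-deficient skin, with the lowest on replicate 1. All 4 neutrophil markers tested, of 6 listed, rose at day 4 in both genotypes, by medians of 4.79 and 3.87. The part of these shifts in the members' changes was not tested.

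The genotypes differed already in acetone-treated skin, where 52 of the 54 members had a higher mean without D6. At day 0, 6 of the 54 members were higher in D6-deficient skin and passed, where 0.713% of all probe sets tested did. They were Lce1f, Lce1h, Lce3f, Cnfn, Casp14 and Grhl3. Lce1h stood at 11.89, 10.67 and 11.29 in WT and 12.57, 12.00 and 12.43 in D6-deficient skin, a difference of 1.05 (adjusted p = 0.0401). Cnfn stood at 9.65, 9.29 and 9.38 in WT and 10.77, 10.37 and 10.41 in D6-deficient skin, a difference of 1.07 (adjusted p = 0.014). Grhl3 stood at 7.04, 6.55 and 7.0001 in WT and 7.72, 7.74 and 7.74 in D6-deficient skin, a difference of 0.87 (adjusted p = 0.0194). For these 3 genes, and for Lce1f (0.93, adjusted p = 0.0248) and Casp14 (1.14, adjusted p = 0.0237) from the day 0 arrays given above, the D6-deficient arrays lay above all WT arrays. Lce3f differed by 2.22, or 4.65-fold (adjusted p = 0.0317), although its lowest D6-deficient array overlapped the highest WT array. Over all members 37 of 54 had D6-deficient arrays above all WT arrays, as did 10.8% of all probe sets tested. These calls rested on single arrays, as 0 of the 54 members passed without WT replicate 2 or without D6-deficient replicate 1 of day 0, and 1 passed without replicate 3 of either genotype. The basal keratins Krt5 and Krt14 were also higher in D6-deficient skin at day 0, by 0.70 and 0.73 (adjusted p = 0.00987 and 0.0174), with summed levels of the 6 keratinocyte markers of 15.57 to 15.66 against 15.11 to 15.18. Of the 4 neutrophil markers 1 was higher and of the 5 macrophage markers 1 was lower. All 5 markers of proliferating cells had a higher mean without D6, by a median of 0.71, and none passed in limma. Their summed levels were 10.62 to 11.08 in D6-deficient and 10.04 to 10.36 in WT skin. The part of all these markers in the members' difference was not tested.

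At day 2 the order was turned, and most of the probe sets that passed were those of Lce1 genes, which are not independent of each other. At day 2, 16 of the 54 members passed as lower in D6-deficient skin, where 1.99% of all probe sets tested did, 3 of them over 3-fold (background 0.161%). Of the 13 Lce1 probe sets 11 passed, and on all 13 the D6-deficient arrays lay below all WT arrays, which held for 34 of the 54 members and 11.9% of all probe sets tested. Lce1l, with the widest difference, was at 7.71, 6.71 and 7.83 in WT and 6.01, 4.97 and 4.59 in D6-deficient skin, 2.23 lower or 4.68-fold (SE 0.36, adjusted p = 0.000346). Lce1c, from the arrays given above, was lower by 1.22 (adjusted p = 0.00161) and the probe set shared by Lce1c, Lce1f and Lce1g by 1.38 (adjusted p = 0.0214). On each the highest D6-deficient array was below the lowest WT array.

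The other Lce1 probe sets differed by about 1 unit each. Lce1a2 was at 12.93, 12.67 and 13.15 in WT and 12.16, 11.54 and 11.93 in D6-deficient skin, a difference of -1.05 (adjusted p = 0.00804). Lce1b was at 12.48, 12.19 and 12.46 and 11.54, 10.98 and 11.40, a difference of -1.07 (adjusted p = 0.00605). Lce1d was at 12.92, 12.65 and 12.99 and 12.02, 11.52 and 11.84, a difference of -1.06 (adjusted p = 0.00511). In these neighbouring genes the highest D6-deficient array lay below the lowest WT array each time. Lce1g was at 7.60, 7.16 and 7.30 and 6.50, 6.01 and 6.00, a difference of -1.18 (adjusted p = 0.011). Lce1h was at 13.39, 13.14 and 13.42 and 12.55, 12.09 and 12.40, a difference of -0.97 (adjusted p = 0.0296). Lce1i was at 13.80, 13.50 and 13.70 and 13.03, 12.44 and 12.80, a difference of -0.91 (adjusted p = 0.0145). Lce1g and Lce1h are the pair with the closest promoters, and these differences had errors of 0.28 and 0.26 (SE). The brighter probe set of Lce1a1 was at 13.20, 12.80 and 13.08 and 12.56, 11.95 and 12.10, a difference of -0.83 (adjusted p = 0.0207), and the second at 13.01, 12.67 and 13.22 and 12.36, 11.73 and 11.95, a difference of -0.95 (adjusted p = 0.0163). Lce1f and Lce1m differed by -0.58 and -1.84 without overlap and did not pass (adjusted p = 0.143 and 0.135). The median Lce1 level per array at day 2 was 12.90 ± 0.21 with D6 and 11.79 ± 0.25 without it (SD, n = 3 mice each), and 11.67 ± 0.25 and 12.37 ± 0.19 at day 0.

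None of the Lce3 genes passed between the genotypes in limma at day 2, with -0.08, -0.15, -0.09 and 0.05 for Lce3a, Lce3b, Lce3c and Lce3f, where Lce3f was near the top of the scale in both genotypes. Outside the Lce family Ivl was lower in D6-deficient skin by 1.92, or 3.79-fold (adjusted p = 0.00107), and by 1.60 on its second probe set (adjusted p = 0.00912). Crct1 was at 13.67, 13.48 and 13.67 in WT and 12.96, 12.83 and 13.09 in D6-deficient skin, a difference of -0.64 (adjusted p = 0.00306). Grhl3 was at 9.34, 9.35 and 8.90 and 8.67, 8.16 and 8.34, a difference of -0.81 (adjusted p = 0.0114). Grhl3 was thus higher without D6 at day 0 and lower at day 2, in each case without overlap of the arrays. The brighter Cldn1 probe set was at 9.97, 9.72 and 9.88 and 9.48, 8.85 and 8.95, a difference of -0.76 (adjusted p = 0.0316), and the second did not pass. Lce1c, Lce1d, Lce1l, Crct1 and both Ivl probe sets passed whichever of the 6 arrays was left out, whereas the count of members fell from 16 to 6 without D6-deficient replicate 2, to 8 without WT replicate 1 and to 10 without replicate 3 of either genotype. Among the 6 keratinocyte markers none passed in limma at day 2, with a median difference of -0.09 and summed levels of 15.91 to 16.05 in WT and 15.90 to 15.95 in D6-deficient skin. Of the 4 sebaceous gland markers tested 2 were lower in D6-deficient skin, of 5 skeletal muscle markers 2 were lower, and 2 of the 4 neutrophil and 3 of 5 macrophage markers were higher, and the part of any of these in the members' difference was not tested.

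**Figure D5:**
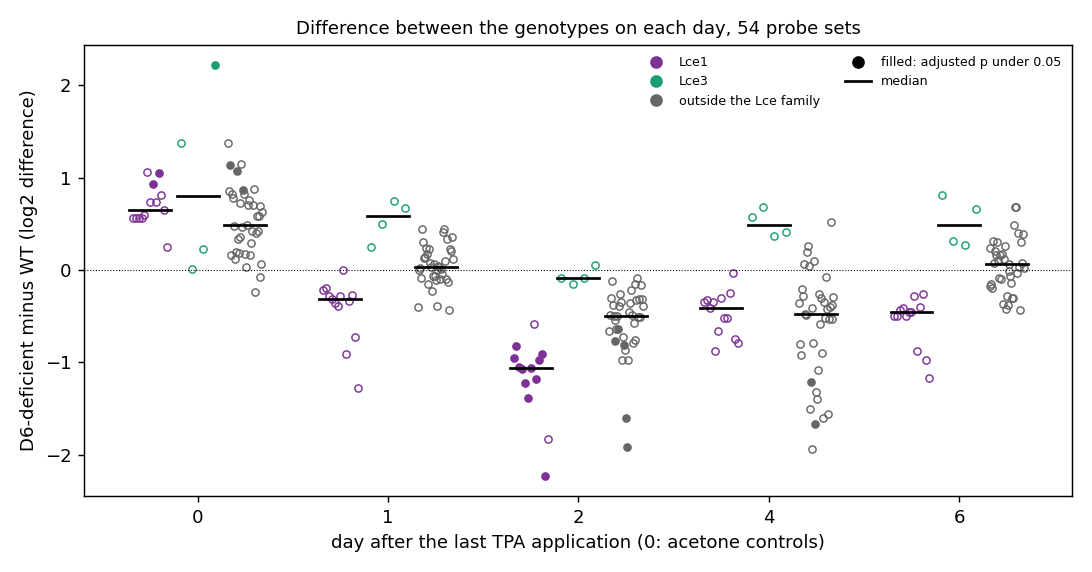
Difference between the genotypes (y axis, D6-deficient minus WT, log2) on each day (x axis, acetone controls at 0) for the 54 member probe sets, a point each, in Lce1, Lce3 and the genes outside the family, with bars at the medians and filled points where the adjusted p was under 0.05. The Lce1 median lies above 0 at day 0 and below 0 at all later days, lowest at day 2, while the Lce3 median is near 0 at day 2 and above 0 on the other days.

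At day 4 the plot of genotype differences holds 2 filled points, where 0.225% of all probe sets tested were lower in D6-deficient skin. Hrnr was at 10.33, 11.11 and 10.38 in WT and 7.70, 9.54 and 9.59 in D6-deficient skin, a difference of -1.66 (adjusted p = 0.0313). Dsg1a was at 9.37, 9.94 and 8.93 and 7.71, 8.48 and 8.43, a difference of -1.21 (adjusted p = 0.00769). In both genes the genotypes did not overlap at day 4. The count of 2 became 0 without WT replicate 2 or D6-deficient replicate 1, 1 without WT replicate 1, and 7 without D6-deficient replicate 3. At day 4 Krt5 was lower in D6-deficient skin as well (-0.66, adjusted p = 0.0222), 1 of the 4 neutrophil markers was higher, and their part in the difference was not tested. At day 1 no member passed in limma (background 0.0555%), with 1 at an unadjusted p under 0.05 and, by the methods' t-test, 2 before and 0 after Benjamini-Hochberg adjustment. At day 6 no member passed in limma either (background 0.125%), with 7 at an unadjusted p under 0.05 and 0 by the methods' t-test.

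Since the genotypes differed at day 0, the change from day 0 was also compared between them, which subtracts the day 0 difference from that of the later day. At day 2 the change of 28 of the 54 members was lower in D6-deficient skin, where 2.62% of all probe sets tested passed in that direction, with 14 over 3-fold (background 0.555%). Of the Lce1 probe sets 12 of 13 were among them, all but that of Lce1m, by 1.39 (brighter probe set of Lce1a1) to 2.88 (Lce1l). Of the rest, the differences were widest for Abca12 (-2.04, adjusted p = 0.0175), Grhl3 (-1.68, adjusted p = 0.000479) and Cnfn (-1.58, adjusted p = 0.00295) beside Ivl and the dimmer probe set of Ovol1. The brighter Ovol1 probe set did not pass. None of the 4 Lce3 probe sets passed, with -1.46, -0.16, -0.32 and -2.17. At day 4 7 members passed, all lower (background 0.416%), among them Casp14 with -2.06 (adjusted p = 0.00982), the one call of that day that held whichever of the 12 arrays was left out. The count of day 4 lay between 1 and 13 with single arrays left out, with 1 without WT day 4 replicate 2, D6-deficient day 0 replicate 1 or D6-deficient day 0 replicate 3, 2 without WT day 0 replicate 3, 3 without WT day 0 replicate 2 or D6-deficient day 4 replicate 1, 4 without WT day 4 replicate 1, and 13 without D6-deficient day 4 replicate 3. In the same comparison of changes, 3 of 6 keratinocyte markers were lower at day 4, Krt5 (-1.36), Krt14 (-1.23) and Perp (-0.77), with a median of -1.24 over the 6. At day 2 the keratinocyte median was -0.60 and none of the 6 passed in limma, 3 of 5 macrophage markers and 1 of 4 neutrophil markers were higher, and 2 of 4 sebaceous gland markers, Elovl3 (-4.78) and Far2 (-4.57), were lower. The part of these markers in the members' differences was not tested. At days 1 and 6 no member passed in limma (backgrounds 0.0194% and 0.025%), while 23 and 24 did at an unadjusted p under 0.05 and by the methods' t-test 30 and 24 before and 0 after adjustment.

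A further list of 47 genes of the same pathways, none of them a member, had 44 tested. In WT skin 24, 25, 17 and 13 of the 44 rose at days 1, 2, 4 and 6 and 1, 1, 5 and 2 fell, and in D6-deficient skin 13, 11, 15 and 10 rose and 7, 11, 14 and 7 fell. Set against the shares of all probe sets given above for the members, those that rose stood above the background at every day in both genotypes and those that fell in WT skin below it. Those that fell in D6-deficient skin were near the background at day 1 (18.1%), day 2 (20.6%) and day 6 (15.7%) and above it at day 4 (22.4%). Between the genotypes 10 of the 44 passed at day 2 (background 1.99%), all with the lower level in D6-deficient skin, among them 6 of 13 barrier lipid genes. Those 6 were Aloxe3 (-0.91), a lipoxygenase of the ceramide envelope, the acyltransferase gene Pnpla1 (-0.74), Sult2b1 (-0.67), which sulphates cholesterol, the sphingomyelinase gene Smpd1 (-0.70), the fatty acid transporter gene Slc27a4 (-0.56) and the lipase gene Lipn (-0.62). The other 4 were Kprp (-0.95), Sbsn (-0.40), Prss8 (-0.89) and Prdm1 (-0.73). At day 0 5 of the 44 were higher in D6-deficient skin (background 0.713%), Pkp1, Pnpla1, Slc27a4, Trp63 and Cebpb, so that Pnpla1 and Slc27a4 passed in opposite directions on the 2 days, as Grhl3 did among the members.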

How the data were processed

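Whole back skin of 30 mice was hybridised to Affymetrix whole-genome mouse arrays, 1 array a mouse. The authors normalized the arrays with RMA and deposited linear intensity values per probe set, with gene symbols as given in the file, of which some are old. Here log2 of the deposited intensity was taken. Of 45101 probe sets, 64 controls and the 9008 with the lowest means (20%, mean under 3.72) were left out. The 36029 others were fitted in R 4.3.3 with limma 3.58.1, 1 mean per genotype and day over all arrays, with Benjamini-Hochberg adjustment per contrast and a threshold of 0.05. Arrays have no read depth, and 3 arrays a group limit the precision. Groups came from the sample labels. The script was tested on simulated data.

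The contrasts were each day against day 0 within a genotype, the genotypes on each day, and the difference between their changes from day 0. A gene is quoted through its brightest probe set. Values per array are given for Lce1c, Lce1f, Lce3f, Flg, Lor and Ivl, for the member of each role with the widest change that passed, and for members that passed between the genotypes on a day. Other members named were chosen after their values were seen. The members and lists were chosen with earlier results of these data known. Promoters of RefSeq (GRCm38.p6) were found for 38 of the 46 genes, searched with Python 3.11.15 and aligned with Biopython 1.88, and plots used matplotlib 3.10.9. Alternatives were no filter, median centring, hybridisation control sets as a covariate, a replicate block, the arrays of a contrast alone, the methods' t-test, a limit of 3-fold, and leaving out each array.

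Marker lists of 10 cell types or skin structures were tested, and some results not given above follow here. Of the T cell (5 tested), fibroblast (5), adipocyte (4) and proliferating cell (5) markers, none passed between the genotypes on any day in limma. Against day 0 the T cell markers that rose numbered 3, 3, 2 and 3 in WT and 3, 2, 2 and 2 in D6-deficient skin at days 1, 2, 4 and 6. Fibroblast markers passed at day 4 (1 higher and 2 lower in WT, 1 and 3 without D6) and day 6 (1 lower in D6-deficient skin), and adipocyte markers at day 4 in WT skin (2 lower).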

Additional observations from a re-analysis of the deposited data

Results flagged for a closer look

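The change from day 0 differed between the genotypes by the test of that difference in limma in 35 cases, 28 probe sets at day 2 and 7 at day 4, of which those of Lce1c, Lce1f, Asprv1 and Casp14 passed at both. In all of them the smaller or more negative change was that of D6-deficient skin, and each is given as D6-deficient minus WT change (log2). At day 2 the Lce1 values were -1.39 and -1.52 for the probe sets of Lce1a1, -1.61 for Lce1a2, -1.64 for Lce1b, -1.82 for Lce1c, -2.45 for the set shared by Lce1c, Lce1f and Lce1g, -1.79 for Lce1d, -1.52 for Lce1f, -1.92 for Lce1g, -2.02 for Lce1h, -1.72 for Lce1i and -2.88 for Lce1l. All 12 passed whichever of the 12 arrays was left out. Among envelope proteins and cross-linking enzymes at day 2 the values were -1.58 for Cnfn, -0.98 for Crct1, -1.08 for Evpl, -1.96 and -1.77 for Ivl, -0.92 for Scel and -1.20 for Tgm1. Among proteases, lipid and junction genes they were -1.34 for Asprv1, -1.44 for Casp14, -1.15 for Klk7, -2.04 for Abca12, -1.27 for Cers3 and -1.24 for Cldn1. Among transcription factors they were -1.19 for Grhl1, -1.68 for Grhl3 and -1.63 for the dimmer Ovol1 probe set, while the brighter one did not pass. Of these, Cnfn, Crct1, Asprv1, Klk7, Cldn1 and Grhl3 passed whichever array was left out. At day 4 the values were -1.47 for Lce1c, -1.46 for Lce1f, -3.08 for Flg, -2.48 for Hrnr, -1.57 for Dsg1a, -1.66 for Asprv1 and -2.06 for Casp14. The calls of Lce1c and Flg at day 4 were each lost in 8 of 12 cases with an array left out.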

How the results depend on the processing

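Counts are of the 54 members. No filter on low means, median centring, the hybridisation control sets and the brightest probe set alone moved no count by over 1.5 times, and no member's change turned its sign where it had passed. With single arrays left out, the counts past the test were 36 to 43, 39 to 45, 31 to 33 and 21 to 33 in WT skin at days 1, 2, 4 and 6, and 29 to 32, 25 to 28, 29 to 33 and 11 to 24 in D6-deficient skin. Between the genotypes they were 0 to 8, 0 to 0, 6 to 17, 0 to 7 and 0 to 1 at days 0, 1, 2, 4 and 6, and for the difference in change 0 to 0, 19 to 28, 1 to 13 and 0 to 0. With the replicate block, counts were 42, 46, 32 and 32 in WT and 33, 29, 35 and 20 in D6-deficient skin, 7, 0, 16, 2 and 0 between the genotypes, and 0, 27, 6 and 0 for the difference in change. Replicate numbers did not pair the arrays (mean r 0.0000 of deviations for equal numbers). Fitting the arrays of a contrast alone gave 13 for D6-deficient day 6, 0 between the genotypes at day 4 and 3 for the difference in change at day 4. The methods' t-test before adjustment gave 27, 2, 30 and 11 between the genotypes at days 0, 1, 2 and 4, and 30, 46, 36 and 24 for the difference in change. With 3-fold added it gave 21, 16 and 11 in WT skin at days 1, 4 and 6, 13, 12, 14 and 6 in D6-deficient skin, 0, 4 and 0 between the genotypes at days 0, 2 and 4, and 4, 11 and 2 for the difference in change at days 1, 4 and 6. After Benjamini-Hochberg adjustment it gave 24 and 0 in WT skin at days 1 and 6, 23 and 0 in D6-deficient skin at days 4 and 6, and 0 between the genotypes at days 0, 2 and 4 and for the difference in change at day 4. The limma test with 3-fold added gave 21, 16 and 11 in WT skin at days 1, 4 and 6, 13, 12, 14 and 9 in D6-deficient skin, 1, 3 and 1 between the genotypes at days 0, 2 and 4, and 14 and 4 for the difference in change at days 2 and 4. The causes of these shifts were not tested beyond the smaller number of arrays. Signals near the top of the scale and probes shared within the Lce family limit what the Lce values can show.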
